A study of Homo sapiens with 6 samples.

Results

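Respiratory complex III, the cytochrome bc1 complex of the mitochondrial inner membrane, was followed at the level of its transcripts through 5 nuclear genes, CYC1, UQCRC1, UQCRC2, UQCRH and UQCRB. They were taken by name from the 14884 genes that had a named probe set, and all 5 were measured, each by 1 probe set. The cells were HK2, an established human line from the proximal tubule of the kidney, grown in DMEM with serum. One group of 3 arrays came from cells transduced with a pLKO.1 lentivirus carrying an shRNA against GFP (shGFP), and the other group of 3 from cells given the PGC-1alpha shRNA (shPGC-1alpha) in the same vector. Both groups went through puromycin selection; the RNA dates from day 5, when selection had been over for 24 hours. The labels name 1 construct a group, number the arrays as biological replicates 1 to 3 and leave unsaid whether each had its own transduction. The p-values therefore rest on the spread of these 6 samples, which may be technical. PPARGC1A, the gene of PGC-1alpha, was not analysed here, so the labels were not checked against the target.

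Complex III takes electrons from reduced ubiquinone, passes them to cytochrome c and moves protons out of the matrix. Its catalytic centres sit in cytochrome b, encoded by mitochondrial DNA, in cytochrome c1 and in the Rieske iron-sulfur protein, and further nuclear subunits surround them. PGC-1alpha is a coactivator known for raising transcription of respiratory chain genes, partly through the factors NRF1 and ERRalpha, and the proximal tubule depends on oxidative metabolism for solute transport. The comparison addressed which transcripts differ between cells with the shRNA against PGC-1alpha and the control.

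Of the 5 subunit transcripts, that of CYC1 fell, and the other 4 did not pass the test. Values are log2 RMA expression, differences are shPGC-1alpha minus shGFP, and a gene passed when its limma p, adjusted over all 14884 genes by the Benjamini-Hochberg method, was under 0.05. Over all these genes 21.8% passed, 9.58% higher and 12.2% lower, so 1 of 5 is close to the background share. The median difference of the 5 subunits was -0.075, against -0.016 over all genes. In 2 of the 5, CYC1 and UQCRC2, every shPGC-1alpha array was below every shGFP array. Over all genes such a separation was found for 38.7%, 21.5% with shPGC-1alpha lower and 17.2% with it higher.

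CYC1 encodes cytochrome c1, the heme-bearing subunit that hands electrons to cytochrome c. Its level was 8.87, 8.89 and 8.91 on shGFP arrays 1 to 3 and 8.35, 8.46 and 8.31 on shPGC-1alpha arrays 1 to 3. Every shPGC-1alpha array lay below every shGFP array, and the gap between the groups was wider than the spread within either. The mean went from 8.89 ± 0.02 (SD, n = 3) to 8.37 ± 0.08 (n = 3), a log2 difference of -0.51 (SE 0.07, 95% interval -0.67 to -0.36), or 70.0% of the shGFP level, with a limma adjusted p of 0.0018. Over 14 alternative settings the difference stayed between -0.56 and -0.46 and the limma adjusted p between 1.4e-05 and 0.014. In RNA from whole cultures, fewer cells that express a gene and less of its RNA per cell cannot be told apart.

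UQCRC1 and UQCRC2 encode core proteins 1 and 2, the large matrix-facing subunits, which are related to the subunits of the mitochondrial processing peptidase. UQCRC2 read 9.96, 10.18 and 10.10 on shGFP arrays 1 to 3 and 9.94, 9.92 and 9.83 on shPGC-1alpha arrays 1 to 3. The groups did not overlap, but shGFP array 1 lay only just above the highest shPGC-1alpha array. Its difference was -0.18 (SE 0.08, 95% interval -0.37 to 0.0015), with a limma adjusted p of 0.153; with a variance trend and robust moderation in limma the adjusted p was 0.031. UQCRC1 read 9.22, 9.17 and 9.22 on shGFP arrays 1 to 3 and 9.10, 9.07 and 9.22 on shPGC-1alpha arrays 1 to 3. Its groups overlapped, because shPGC-1alpha array 3 stood at the control level while the other two were below it. The difference for UQCRC1 was -0.075 (SE 0.068, 95% interval -0.24 to 0.085; limma adjusted p 0.505).

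UQCRH encodes the acidic hinge protein that lies beside cytochrome c1. It read 6.34, 6.43 and 6.44 on shGFP arrays 1 to 3 and 6.39, 6.34 and 6.42 on shPGC-1alpha arrays 1 to 3. The groups lay on top of each other, and the difference of -0.020 (SE 0.064; limma adjusted p 0.868) had a 95% interval of -0.17 to 0.13. UQCRHL is a near-identical, intronless copy of UQCRH, and probes can be shared between them, so neither value is certain to come from its own gene. The probe set named UQCRHL read 8.70, 8.77 and 8.79 with shGFP and 8.80, 8.88 and 8.93 with shPGC-1alpha, and it was the only gene measured of 6 others listed. Its difference was 0.12 (SE 0.07; limma adjusted p 0.287), and its lowest shPGC-1alpha array was only just above its highest shGFP array. Neither of these probe sets showed the decrease seen for CYC1.

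UQCRB encodes a small matrix-side subunit that binds cytochrome b and takes part in ubiquinone binding. Its probe set, which the platform annotation pairs with a noncoding UQCRB transcript, read 5.62, 5.64 and 5.62 on shGFP arrays 1 to 3 and 5.83, 5.61 and 5.40 on shPGC-1alpha arrays 1 to 3. The control arrays were tightly grouped (SD 0.01), whereas the shPGC-1alpha arrays spread on both sides of them (SD 0.21). The difference of -0.014 (SE 0.11; limma adjusted p 0.948) had the widest 95% interval of the 5 subunits, from -0.27 to 0.24. The sign of the UQCRH and UQCRB differences turned positive when arrays were centred on their medians or normalised again by quantiles, so neither gene has a direction here. UQCRFS1, UQCRQ, UQCR10, UQCR11 and MT-CYB were not analysed here.

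**Figure D1:**
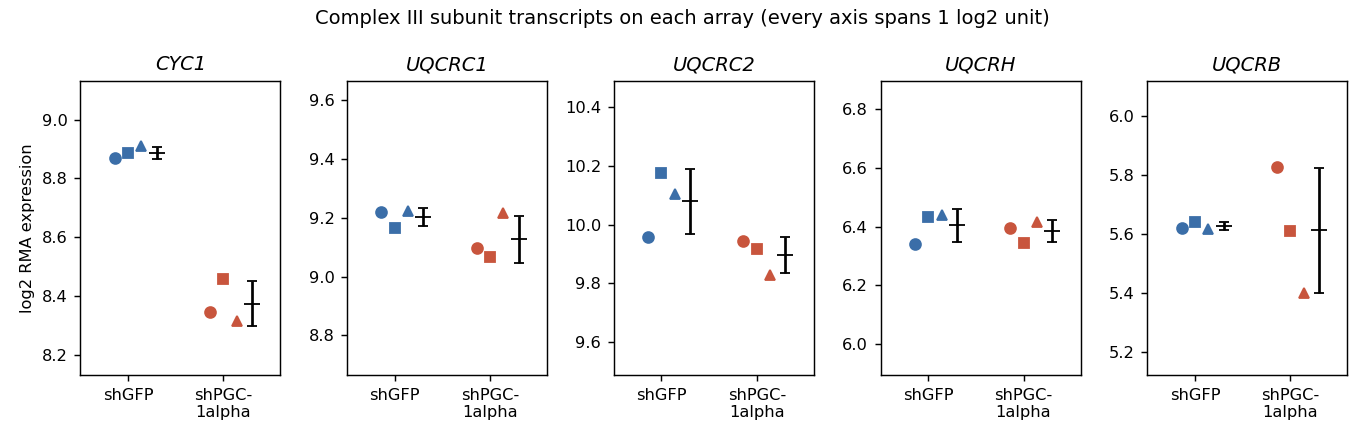
The log2 RMA level (vertical axis) of each complex III subunit gene is plotted for the 3 shGFP arrays (blue) and the 3 shPGC-1alpha arrays (red); circles, squares and triangles are replicates 1, 2 and 3, and black bars give the mean ± SD. CYC1 drops from 8.89 to 8.37 with no overlap, while UQCRC1, UQCRH and UQCRB overlap between the groups.

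Because CYC1 moved and its partners did not pass, the difference itself was tested by subtracting each partner from CYC1 within each array. CYC1 was made the reference after its values were seen. The 4 pairs share the CYC1 values, so they are not separate results. Against partners that changed less, a negative shift was close to fixed in advance, and the permutation p adds no support. CYC1 minus UQCRC1 was -0.35, -0.28 and -0.31 on shGFP arrays 1 to 3 and -0.75, -0.61 and -0.90 on shPGC-1alpha arrays 1 to 3, a shift of -0.44. The shift was -0.33 against UQCRC2, -0.49 against UQCRH and -0.50 against UQCRB. In all 4 pairs every shPGC-1alpha array lay below every shGFP array, with group SDs between 0.03 and 0.21. Each pair had an exact two-sided permutation p of 0.1, also 0.1 after Benjamini-Hochberg adjustment over the 4 pairs, which is the smallest value that 3 arrays against 3 can give. The permutation test therefore cannot reach 0.05 with these arrays. These are within-array differences between probe sets, and only their shift between groups, not their size, can be read.

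**Figure D2:**
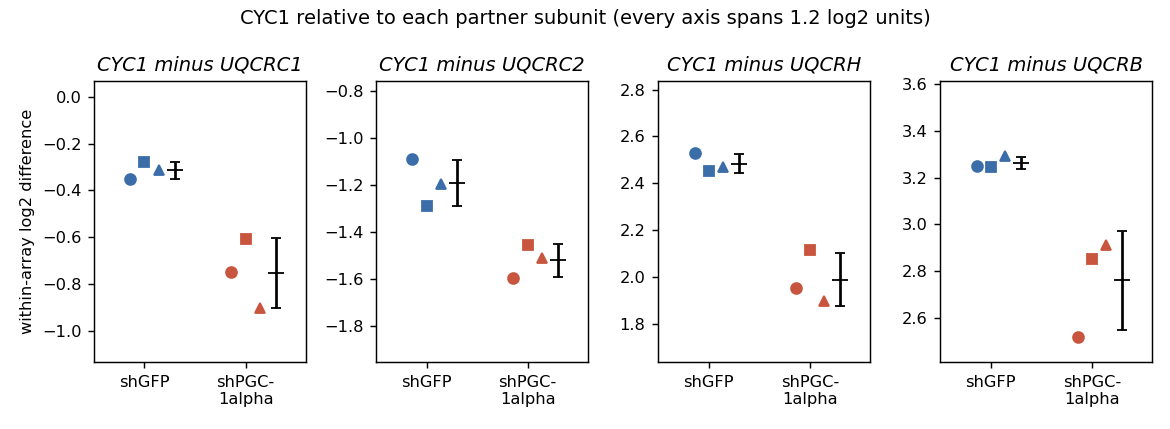
The within-array log2 difference between CYC1 and each partner subunit (vertical axis) is shown for 3 shGFP arrays (blue) and 3 shPGC-1alpha arrays (red), with black bars for the mean ± SD and symbols for replicates 1 (circle), 2 (square) and 3 (triangle). Each panel shows the red points below the blue ones, by 0.33 for UQCRC2 up to 0.50 for UQCRB on average.

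Genes that build complex III moved in both directions. Of 9 measured assembly genes out of 11 listed, 1 rose and 3 fell, 44.4% against 21.8% of all genes, with a median difference of -0.12. LYRM7, a chaperone that holds the Rieske protein in the matrix before its insertion, had the widest change. It read 6.33, 6.25 and 6.10 on shGFP arrays 1 to 3 and 7.004, 7.07 and 6.93 on shPGC-1alpha arrays 1 to 3. The groups were far apart, and the mean rose from 6.23 ± 0.11 (SD, n = 3) to 6.999 ± 0.07 (n = 3), a difference of 0.77 (SE 0.08, 95% interval 0.58 to 0.96; limma adjusted p 0.00076) or 1.71-fold. Its limma adjusted p was at most 0.0061 over the 14 alternatives. BCS1L, the membrane translocase that inserts the Rieske protein after LYRM7 has acted, was at -0.04 (SE 0.09; limma adjusted p 0.808) with overlapping groups.

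The assembly genes that fell were UQCC1, UQCC2 and OCIAD1. UQCC1 and UQCC2 bind newly made cytochrome b, and OCIAD1 is an inner membrane protein needed for normal complex III assembly. UQCC1 read 8.08, 7.94 and 7.93 with shGFP and 7.78, 7.59 and 7.58 with shPGC-1alpha. UQCC2 read 9.77, 9.77 and 9.79 with shGFP and 9.60, 9.42 and 9.50 with shPGC-1alpha. OCIAD1 read 8.84, 8.79 and 8.83 with shGFP and 8.55, 8.58 and 8.35 with shPGC-1alpha. In each of the 3 genes all shPGC-1alpha arrays were below all shGFP arrays. The differences were -0.34 (SE 0.08) for UQCC1, -0.27 (SE 0.07) for UQCC2 and -0.32 (SE 0.08) for OCIAD1, with limma adjusted p-values of 0.026, 0.030 and 0.025. These calls were near the threshold. Those of UQCC1 and UQCC2 were lost without any single array other than shPGC-1alpha replicate 1, and that of OCIAD1 without any 1 of the shGFP arrays, so the count of 3 became 0 without an shGFP array and 1 without shPGC-1alpha replicate 2 or 3, and it was also 0 with all probe sets tested. UQCC2 did not pass with the arrays centred on their medians either (limma adjusted p 0.058). UQCC3, UQCC5, UQCC6 and OCIAD2 did not pass, with differences between -0.13 and 0.08.

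**Figure D3:**
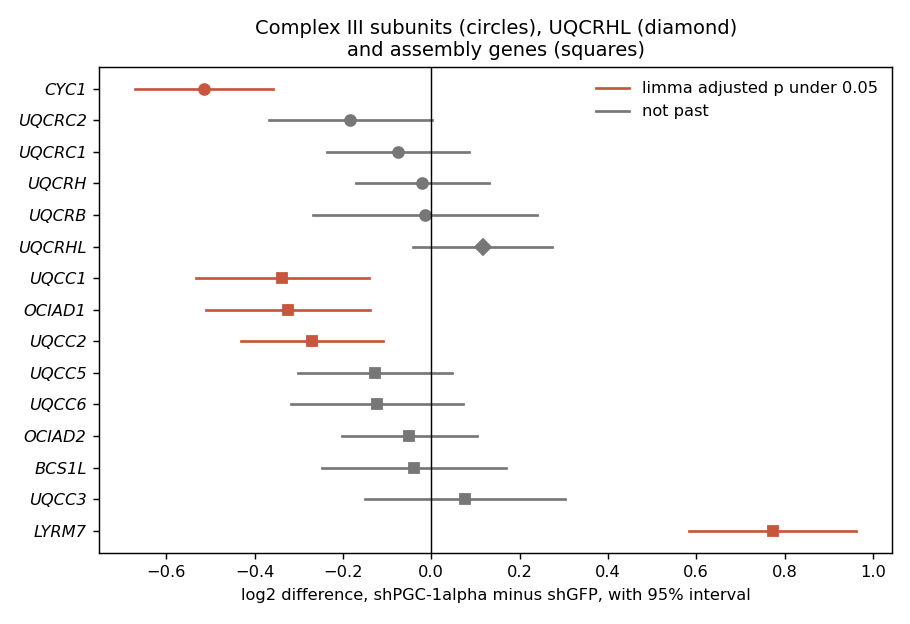
Points give the log2 difference between the groups (horizontal axis, shPGC-1alpha minus shGFP) and lines its 95% interval for 5 complex III subunits (circles), UQCRHL (diamond) and 9 assembly genes (squares); red marks a limma adjusted p under 0.05 and grey the rest. CYC1, UQCC1, UQCC2 and OCIAD1 lie left of 0, and LYRM7 at 0.77 lies far to the right of all others.

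The DNA in front of these genes was read from the RefSeq promoter table (GRCh38.p14), which held 3 of the 5 subunits (UQCRC1, UQCRC2 and UQCRH) and 8 of the 9 measured assembly genes. CYC1, UQCRB and UQCC3 had no entry. Each entry of 300 bases, 250 before and 50 after the annotated start, was searched on both strands for 4 motifs bound by factors known to act on respiratory genes. They were GCGC followed by any base and TGCGC (NRF1), CCGGAAG (ETS factors such as GABPA), AAGGTCA (the core of ERR sites) and AAGATGG (YY1), of which the ETS and YY1 motifs can overlap in 3 letters. The bases just before the start that lie in no other annotated gene are shown, with motif matches in capitals. They are given for subunit genes that did not pass and for UQCC2, which fell. The other assembly genes that passed, UQCC1, OCIAD1 and LYRM7, are not printed. Their 80 bases before the start held none of the 4 motifs.
UQCRC1, GRCh38.p14 chr3:48609647-48609726, minus strand: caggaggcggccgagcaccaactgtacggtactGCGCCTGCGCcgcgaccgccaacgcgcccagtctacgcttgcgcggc
UQCRC2, GRCh38.p14 chr16:21953281-21953360, plus strand: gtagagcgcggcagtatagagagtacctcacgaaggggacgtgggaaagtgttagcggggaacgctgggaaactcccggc
UQCRH, GRCh38.p14 chr1:46303618-46303697, plus strand: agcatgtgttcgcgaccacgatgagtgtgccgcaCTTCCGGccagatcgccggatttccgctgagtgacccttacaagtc
UQCC2, GRCh38.p14 chr6:33711701-33711780, minus strand: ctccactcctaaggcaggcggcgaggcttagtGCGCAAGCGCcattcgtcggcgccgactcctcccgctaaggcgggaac
The capitals mark the NRF1 motif in UQCRC1 and, read on the opposite strand, in UQCC2, and the ETS motif, also read on the opposite strand, in UQCRH, while the stretch from UQCRC2 held none of the 4.

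The NRF1 motif was present in the promoters of UQCRC1, UQCC1 (2 matches), UQCC2 and UQCC5. It was in 6.05% of all 27305 promoters and in 8.33% of the 10749 promoters of genes named on the array. Of these 4 genes, UQCC1 and UQCC2 fell, whereas UQCRC1 and UQCC5 did not pass. OCIAD1, which also fell, had a match to none of the 4 motifs. The ETS motif was found in UQCRH, LYRM7 and OCIAD2, in 10.6% of all promoters and in 14.7% of those of named genes. The YY1 motif was found in UQCRC1, UQCRC2 and UQCC2, each time within the 50 bases after the start. It was in 6.04% of all promoters and in 6.54% of those of named genes. The ERR motif was in none of these 11 promoters, in 4.04% of all and in 3.03% of those of named genes. A match is a description of the letters and not evidence of binding.

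UQCRH shares its start region with LRRC41, which encodes a leucine-rich repeat protein of ubiquitin ligase complexes and runs the opposite way. Their annotated starts are 81 bases apart in the promoter table, so the UQCRH stretch printed above is almost the whole interval between them and the ETS motif in it belongs to both windows. LRRC41 read 9.14, 9.16 and 9.10 on shGFP arrays 1 to 3 and 8.65, 8.61 and 8.67 on shPGC-1alpha arrays 1 to 3. It fell by 0.48 on the log2 scale (SE 0.06; limma adjusted p 0.0015), a call that held in all 14 alternatives, while UQCRH stood at -0.02. UQCRH minus LRRC41 was -2.80, -2.72 and -2.66 within the shGFP arrays and -2.26, -2.27 and -2.26 within the shPGC-1alpha arrays, a shift of 0.46 with no overlap (exact two-sided permutation p = 0.1, the smallest this design can give). This pair was singled out after its values were seen, and the UQCRH value is not certain to come from UQCRH rather than UQCRHL.

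The other nearest named neighbours did not pass. Beside CYC1, the anchor-attachment gene GPAA1 was at -0.09 and SHARPIN, a component of the linear ubiquitin ligase, at -0.02, both with overlapping groups, while CYC1 between them fell. Next to UQCRC1, MIR711 was at -0.57 (SE 0.22; limma adjusted p 0.120) and TMEM89 at -0.15. Next to UQCRC2, the pseudogene RRN3P1 was at 0.18 and MOSMO at -0.18. Next to UQCRB, GDF6 was at 0.06 and MTERF3, a regulator of mitochondrial transcription and ribosome assembly, at -0.27 (SE 0.11; limma adjusted p 0.137). FAAH, on the far side of UQCRH, was at 0.45 (SE 0.15; limma adjusted p 0.074) with its arrays apart, and it passed under 5 of the alternatives, at an adjusted p of 0.033 with the variance trend.

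**Figure D4:**
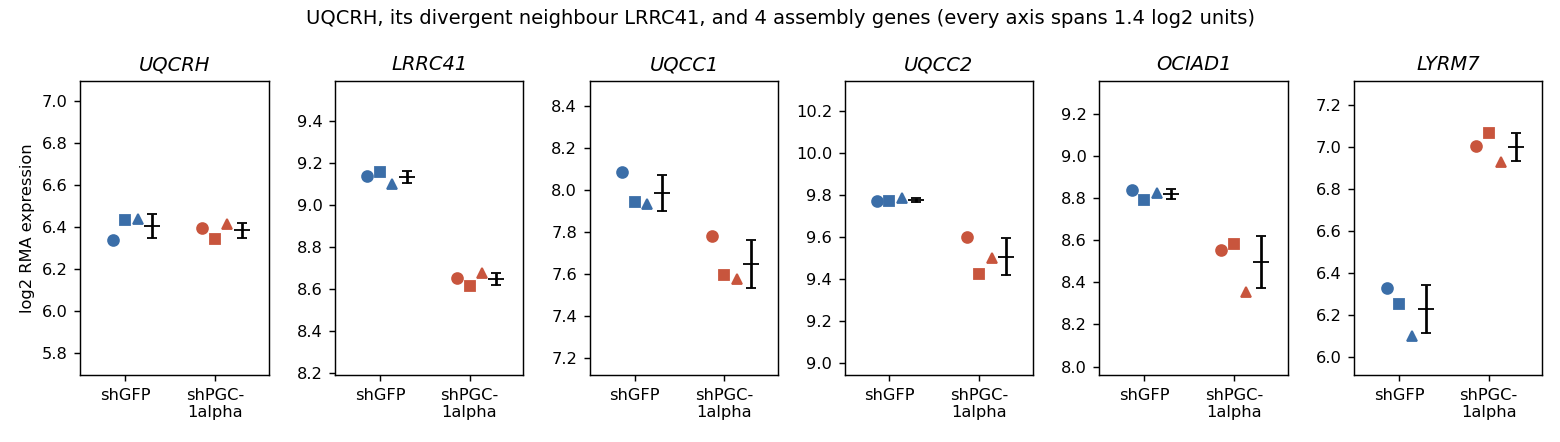
The log2 RMA level (vertical axis) on each shGFP array (blue) and shPGC-1alpha array (red) is shown for UQCRH, its divergent neighbour LRRC41 and the assembly genes UQCC1, UQCC2, OCIAD1 and LYRM7, with black bars for the mean ± SD and symbols for replicates 1 (circle), 2 (square) and 3 (triangle). UQCRH is level between the groups, LRRC41 and the first 3 assembly genes are lower with shPGC-1alpha, and LYRM7 is higher.

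Genes of the dehydrogenases that supply complex III with electrons and of their assembly factors, taken as 1 list, were lower more often than higher. Of 10 measured genes of dehydrogenases that reduce ubiquinone and their assembly factors, 1 rose and 5 fell (60% called, against 21.8% of all genes), with a median of -0.22. SDHAF4, an assembly factor of succinate dehydrogenase, read 6.83, 6.94 and 6.92 with shGFP and 6.24, 6.30 and 6.37 with shPGC-1alpha, a difference of -0.59 (SE 0.07; limma adjusted p 0.0012). ETFDH, which passes electrons from fatty acid and amino acid oxidation to ubiquinone, was at -0.42, choline dehydrogenase CHDH at -0.58 and SDHAF2, which attaches flavin to succinate dehydrogenase, at -0.34, with limma adjusted p-values between 0.0051 and 0.013. The gene that rose was GPD2, the mitochondrial glycerol-3-phosphate dehydrogenase, at 0.27 (SE 0.06; limma adjusted p 0.021). The count that rose was 0 when replicate 1 or 2 of either group was left out. SDHA, SDHB, SDHC and SDHD were not analysed here.

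Of 7 measured genes of coenzyme Q (ubiquinone) synthesis and handling, 1 rose and 3 fell (57.1% called, against 21.8% of all genes), with a median of -0.21. COQ10B, a ubiquinone-binding protein, read 7.70, 7.83 and 7.65 with shGFP and 8.26, 8.36 and 8.12 with shPGC-1alpha, and rose by 0.52 (SE 0.09; limma adjusted p 0.0054). Its relative COQ10A was at -0.31 (limma adjusted p 0.033) and the synthesis genes COQ4 and COQ9 at -0.22 and -0.21 (limma adjusted p 0.045 and 0.049). The calls of COQ4 and COQ9 were lost without any 1 of the 6 arrays and that of COQ10A without replicate 2 or 3 of either group, so 0 or 1 of the 3 remained called. HCCS, which attaches heme to cytochrome c and cytochrome c1, stood at -0.0019 (SE 0.07; limma adjusted p 0.991), level between the groups although CYC1 fell. CYCS was not analysed here.

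Downstream of complex III, 0 of 16 measured complex IV subunit genes passed in limma, against 21.8% of all genes, and their median difference was 0.01. An unadjusted limma p under 0.05 was found for 4 of the 16, and for 4969 of all 14884 genes. The arrays were apart for 4 of the 16, 2 lower and 2 higher, against 38.7% of all genes, 21.5% lower and 17.2% higher. COX7B2 had the smallest p, at 0.46 (SE 0.14; limma adjusted p 0.062) from levels near 3 that are below the 20th percentile of named genes. The mean levels of COX8C, COX7A1 and COX6B2 were also below that percentile. COX7B2 passed under 4 of its 13 alternatives. The limma adjusted p was 0.025 with the replicate block, 0.028 without shGFP replicate 1, 0.040 with array weights and 0.044 after median centring. Of 21 complex IV assembly genes 1 rose and 3 fell, and the 19% called is close to the 21.8% of all genes. COA1 read 7.90, 7.82 and 7.69 with shGFP and 6.88, 6.83 and 6.66 with shPGC-1alpha, a difference of -1.01 (SE 0.09; limma adjusted p 0.00035). COX11 and PET117 were at -0.46 and -0.40 (limma adjusted p 0.0041 and 0.0060). COA3, the one that rose, was at 0.28, and its call was lost without any single array other than shPGC-1alpha replicate 3. Of 3 measured complex V genes 0 passed in limma and 0 had an unadjusted p under 0.05 (median 0.08), with ATP5MK at 0.10.

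Of 5 genes in the supercomplex list 2 were measured, and both passed (100% called, against 21.8% of all genes). COX7A2L, which links complexes III and IV, rose by 0.28 (SE 0.06, limma adjusted p 0.016). RMND1 fell by 0.37 on the log2 scale (SE 0.08, limma adjusted p 0.016). RMND1 is known for its part in mitochondrial translation rather than in supercomplexes. Without shGFP replicate 2 neither call remained, and without shPGC-1alpha replicate 2 that of RMND1 was lost.

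The route by which these subunits reach the inner membrane was also represented. Of 14 measured genes of presequence import and processing, 0 rose and 3 fell (21.4% called, close to the 21.8% of all genes; median -0.04), and the calls were the intermediate peptidase MIPEP at -0.87 (SE 0.14), the translocase subunit TIMM17B at -0.42 (SE 0.07) and ROMO1 at -0.35 (SE 0.09), with limma adjusted p-values of 0.0043, 0.0055 and 0.036. ROMO1 was lost without any single array other than shPGC-1alpha replicate 1. The subunits of the processing peptidase, PMPCA at 0.02 and PMPCB at -0.16, and the inner membrane peptidase IMMP2L, which trims cytochrome c1, at -0.04, did not pass. Of 8 genes of inner membrane proteases and prohibitins 2 fell (25% called, close to the 21.8% of all genes), and both calls held in all 14 alternatives. The prohibitin PHB2 read 9.88, 9.89 and 9.86 with shGFP and 9.15, 9.08 and 9.02 with shPGC-1alpha, a difference of -0.79 (SE 0.06; limma adjusted p 0.00026), and the scaffold STOML2 was at -0.59 (SE 0.07; limma adjusted p 0.0013). PHB1, the partner of PHB2, was at -0.07 (SE 0.06; limma adjusted p 0.493).

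Cofactor genes gave small counts. Of 8 measured heme synthesis genes 1 rose (12.5% called, against 21.8% of all genes), coproporphyrinogen oxidase CPOX, at 0.35 (SE 0.09; limma adjusted p 0.034), a call lost without any single array other than shPGC-1alpha replicate 2. Of 13 iron-sulfur cluster genes 3 fell (23.1% called, close to the 21.8% of all genes; median -0.03). They were the ferredoxin FDX1 at -0.37, NUBPL, an iron-sulfur carrier for respiratory complex I, at -0.46, and BOLA1 at -0.43, with limma adjusted p-values of 0.0085, 0.011 and 0.019, and BOLA1 was lost without shPGC-1alpha replicate 2 or 3. Of 6 genes listed under cardiolipin, the lipid that complex III binds, 2 rose (33.3% called, against 21.8% of all genes). They were HSD17B10, a mitochondrial dehydrogenase that is also part of RNase P, at 0.51 (SE 0.07; limma adjusted p 0.0027), and the phospholipase PNPLA8 at 0.31 (limma adjusted p 0.024), neither of which makes cardiolipin. PNPLA8 was lost without any single array other than shPGC-1alpha replicate 3.

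Complex III is also a source of superoxide, and of 9 measured genes of mitochondrial superoxide and peroxide defence 1 rose and 3 fell (44.4% called, against 21.8% of all genes; median -0.04). NNT, the transhydrogenase that makes mitochondrial NADPH, read 9.13, 9.19 and 9.17 with shGFP and 8.65, 8.52 and 8.64 with shPGC-1alpha, a difference of -0.56 (SE 0.07; limma adjusted p 0.0013). Glutathione reductase GSR and the peroxiredoxin PRDX3 were at -0.38 and -0.41 and glutaredoxin GLRX2 at 0.40 (SE 0.06), with limma adjusted p-values between 0.0042 and 0.011. Without shPGC-1alpha replicate 3 the count that rose was 2.

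Of 15 measured transcription factors and coregulators of respiratory genes, 1 rose and 2 fell (20% called, close to the 21.8% of all genes), with a median of -0.16. Arrays were apart for 8 of the 15, 7 lower and 1 higher, against 38.7% of all genes, 21.5% lower and 17.2% higher. Differences were negative for 12 of the 15, and for 7901 of all 14884 genes. The deacetylase SIRT1, which acts on PGC-1alpha, was at -0.68 (SE 0.09; limma adjusted p 0.0017), SP1 at -0.31 (SE 0.07; limma adjusted p 0.018) and the nuclear receptor PPARD at 0.43 (SE 0.09; limma adjusted p 0.011). NRF1 itself was at -0.17 (SE 0.06; limma adjusted p 0.098) and ESRRA, the gene of ERRalpha, at 0.17 (SE 0.11; limma adjusted p 0.328), and neither passed. The call of SP1 was lost when replicate 3 of either group, shGFP replicate 2 or shPGC-1alpha replicate 1 was left out, and in all of these but shGFP replicate 2 the count that fell became 1.

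**Figure D5:**
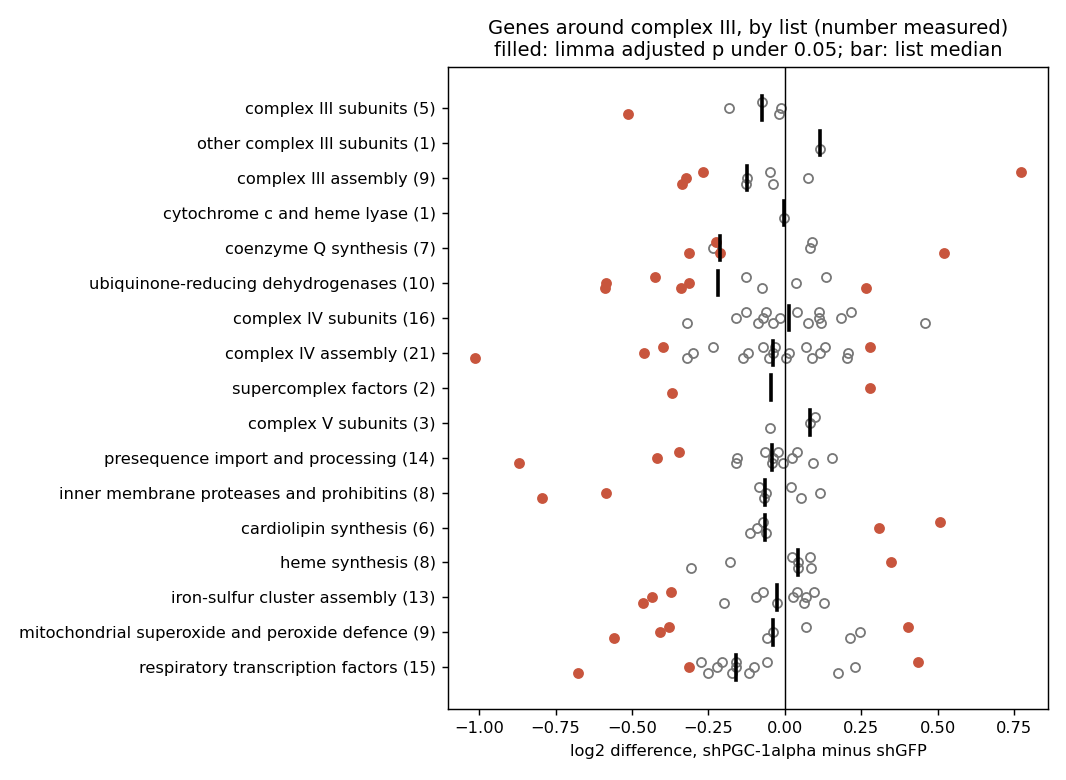
Each circle is a gene at its log2 difference between the groups (horizontal axis, shPGC-1alpha minus shGFP), arranged by list with the number measured; filled circles have a limma adjusted p under 0.05 and the black bar is the list's median. The medians lie between -0.22 and 0.12, and the 16 complex IV subunits have no filled circle.

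The genes whose 6 array values were most like those of CYC1, by Pearson correlation among 10283 protein-coding genes above the 20th percentile of level, were CPNE3 and ATIC (both r = 0.998), STK39 and NEIL1 (both r = 0.998) and MBNL2 (r = 0.998). All 5 fell, by 0.86, 0.64, 0.74, 0.65 and 0.61 on the log2 scale, with limma adjusted p-values of at most 0.0010, and the shared drop between the groups makes up most of the likeness. For UQCRH they were ZNF300 (r = 0.996), MED24 (r = 0.993), ZNF646 (r = 0.979), KLF9 (r = 0.968) and CIAO1 (r = 0.967), and none of these 5 passed, with differences between -0.13 and -0.0074. With 6 arrays and this many genes, values of this size are a description only.

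The arrays had medians between 5.00 and 5.04 and correlated at r = 0.988 to 0.992 within groups and 0.982 to 0.987 between groups over all probe sets. The label was set against 7 measured markers of the proximal tubule. Its endocytic receptors LRP2 and CUBN were near 4, below the 20th percentile of 4.43. DPP4 (10.66 with shGFP), MME (7.77), MIOX (7.243) and AQP1 (5.975) were above it, and ANPEP (4.561) only just. Of the 7, 3 fell (42.9% called, against 21.8% of all genes), MME by 0.61, MIOX by 0.34 and DPP4 by 0.27. ANPEP at 0.156, LRP2 at 0.059, AQP1 at -0.0027 and CUBN at -0.055 did not pass. The summed linear level of the 7 was 2074 to 2153 with shGFP and 1664 to 1806 with shPGC-1alpha. Of 6 kidney epithelial markers 66.7% were called, against 21.8% of all genes. PAX8 rose and 3 fell (KRT19 by 1.42, EPCAM by 0.73 and KRT18 by 0.31), with sums of 4770 to 4932 and 4821 to 5095. Of 7 fibroblast markers listed 2 were measured, and both rose (100% called, against 21.8% of all genes). LUM rose by 0.76 and DCN by 0.83 from a level under the same percentile, with sums of 385 to 400.1 and 624 to 705. Of 4 leukocyte markers 50% were called, against 21.8% of all genes. CD68 rose by 0.34 and CSF1R fell by 0.48 (sums 2348 to 2447 and 2845 to 3063). CD14 at 0.24 and LYZ, near 3.5, did not pass. Among 3 podocyte markers 33.3% were called, against 21.8% of all genes. SYNPO fell by 0.93 (sums 385 to 417 and 258 to 288), while PODXL at 0.24 and WT1 at -0.13 did not pass. Most of the summed level came from a single gene in each list so far, DPP4, PAX8, LUM, CD68 and SYNPO in turn. In limma 0 of 4 endothelial markers (sums 64.2 to 70.3 and 60.6 to 66.6) and 0 of 4 markers of other nephron segments (165 to 190.0 and 185 to 216) passed, and 1 in each list had an unadjusted p under 0.05. The part of these marker shifts in the values of complex III genes was not tested.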

How the data were processed

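Biotin-labelled cRNA of HK2 cells was read on 6 Affymetrix arrays, 3 for each shRNA. The authors deposited log2 values for 53617 probe sets, made with RMA and Affymetrix Expression Console per the submitters' processing notes. Neither version is given in the sources used here. RMA equalises the arrays' distributions, so a shift of most transcripts would be reduced. The values were used as deposited and carry no counts. The small number of arrays limits the precision.

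The platform annotation named 16098 probe sets, which gave 14884 genes after keeping the probe set with the highest mean for 779 genes with more than 1. The contrast between groups came from limma (version 3.58.1, R 4.3.3; moderated linear models with no filter and no block), adjusted by the Benjamini-Hochberg method over all 14884 genes. Within-array differences were tested by exact permutation. Intervals are limma's at 95%, not adjusted for the number of genes.

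The members and lists were chosen with earlier results of these data known. Of 234 genes in 17 lists, 147 were measured. In each list the text gives the genes that passed, at most 4 by rising p, or 1 gene where none did, the nearest named gene on each side of each subunit, and the 5 genes most like CYC1 and UQCRH. Other genes were named after their values were seen. Deviations from group means correlated at 0.0090 to 0.092 between samples of the same replicate number and at -0.112 to 0.047 between other numbers. The same-number values were small but all positive. Numbers were not used as pairs in the main fit, and the replicate block was among the alternatives. The procedure was tested on simulated data. Alternatives were each array left out, the replicate block, a filter on dim genes, other uses of probe sets, 2 scalings, a variance trend and array weights.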

Additional observations from a re-analysis of the deposited data

How the results depend on the processing

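CYC1, LYRM7 and LRRC41 kept their direction and their call in all 14 alternatives. CYC1 ranged from -0.56 to -0.46, LYRM7 from 0.71 to 0.83 and LRRC41 from -0.50 to -0.43. The shifts of CYC1 against its 4 partners kept their sign in all 9 alternatives that could be applied. That sign was close to fixed in advance and median centring cancels within an array, so the kept sign adds no support. The number of genes higher ran from 1011 to 1867 and that of genes lower from 1301 to 2207 over the alternatives, and median centring moved the split from 1426 genes higher and 1817 genes lower to 1867 and 1440. The median of all genes was -0.016 as deposited, 0.037 after centring and 0.0043 after quantile normalisation. With 1 array left out, the difference of UQCRB ran from -0.12 to 0.092 and that of UQCRH from -0.053 to 0.00040. UQCRB was at 0.039 after median centring and 0.024 after quantile normalisation, and UQCRH at 0.032 and 0.034. UQCRC2, at -0.18, passed with the variance trend (adjusted p 0.031), so 2 subunits were then lower.

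Counts near the threshold moved. With 1 array left out they ran from 1 to 2 (cardiolipin, higher), 0 to 1 (coenzyme Q, lower), 0 to 3 (complex III assembly, lower), 0 to 1 (complex IV assembly, heme, supercomplex and ubiquinone dehydrogenases, higher; supercomplex, lower; complex IV subunits, higher), 1 to 2 (defence, higher) and 1 to 2 (transcription factors, lower). The replicate block gave 0 lower for coenzyme Q, 0 higher for complex IV assembly and ubiquinone dehydrogenases and 1 higher for complex IV subunits, with 1221 genes higher and 1552 lower overall; the call of UQCC2 was lost (adjusted p 0.058), leaving 2 assembly genes lower, as also after median centring, and no call of a complex III subunit changed. With all 53617 probe sets tested, 1 cardiolipin gene was higher, 0 coenzyme Q and 0 complex III assembly genes lower, 0 complex IV assembly, heme and supercomplex genes higher, 0 supercomplex and 1 iron-sulfur gene lower, 0 transcription factors higher and 1 lower, and 0 ubiquinone dehydrogenases higher and 3 lower. Median centring gave 0 coenzyme Q genes lower, and higher counts of 3 for complex IV assembly, 2 for complex IV subunits, 3 for defence and 1 for import. Quantile normalisation gave 1 coenzyme Q gene lower, 1 complex IV subunit each way and 2 defence genes higher. The filter gave 3 defence genes higher. The variance trend gave higher counts of 3 for complex IV assembly, 3 for defence and 1 for import, and lower counts of 2 for complex IV subunits and 4 for transcription factors. Array weights gave 1 complex IV subunit and 2 defence genes higher. The cause was not tested.

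Genes near 0 changed sign. Median centring gave HCCS 0.050, SHARPIN 0.031, MED24 0.035, KLF9 0.026, ZNF646 0.0013 and CIAO1 0.045, and quantile normalisation KLF9 0.0074 and CIAO1 0.024. With 1 array left out HCCS ran from -0.039 to 0.042, SHARPIN from -0.071 to 0.022, MED24 from -0.052 to 0.0057, KLF9 from -0.071 to 0.0091 and CIAO1 from -0.038 to 0.018.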
